A study of Mus musculus with 32 samples.

Results

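Hepatectomy in mice kept on a methionine- and choline-deficient (MCD) diet and treated with a dual agonist was described by comparing 2 groups of 4 livers each, 8 of the 32 livers in the series. Both groups were male C57/BL6 mice on the MCD diet that received 4.4 mg/kg/day of an agonist of the glucagon-like peptide-1 receptor (GLP1R) and the glucagon receptor (GCGR), given every 2 days. The baseline group had 3 weeks of diet and, after the first week, 2 weeks of agonist, with no hepatectomy. The other group had the same diet and agonist, then lost 70% of the liver by partial hepatectomy, stayed on both for 2 more weeks and was sampled at that point. Livers were assigned to the groups by these labels, with no measured value used. The remaining 24 livers were mice on the MCD diet without agonist or on a standard diet with or without it, each at baseline and after hepatectomy. Each group held 4 independent livers per the series' design text, and no sham-operated group was analysed here. Each liver was hybridised to 1 one-colour oligonucleotide array.

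After partial hepatectomy the remnant liver regrows mainly by division of its own hepatocytes, which are first primed by cytokines such as interleukin-6 and then driven by growth factors such as HGF and EGFR ligands, before growth stops and matrix, vessels and metabolism are rebuilt. The MCD diet withholds the methyl donors needed to make phosphatidylcholine, without which very-low-density lipoprotein export is impaired and triglyceride collects in hepatocytes, with inflammation and fibrosis. GCGR is abundant on hepatocytes and acts through cyclic AMP on glucose, lipid and amino acid metabolism, whereas GLP1R acts mainly outside hepatocytes.

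Array signals are given as log2 intensity relative to the 75th percentile of the same array, so 0 marks that percentile and 1 unit is a 2-fold difference. The share of spots well above background was 44.4 to 60.5% on the baseline arrays and 51.1 to 59.4% on those after hepatectomy. The 75th percentile signal used for scaling did not overlap, at 211 to 467 at baseline and 663 to 880 after hepatectomy. Arrays correlated with each other at 0.955 to 0.974 within the baseline group, 0.976 to 0.988 within the hepatectomy group and 0.951 to 0.965 between them. The range within the baseline group overlapped that between the groups. The 4 baseline arrays lay on 1 slide and the 4 arrays after hepatectomy on another, read with another scanner in another session. Hepatectomy therefore cannot be told apart from slide, scanner and session, nor from the 2 extra weeks of diet and agonist. The hepatocyte gene Alb, albumin, read 9.57 to 10.21 at baseline and 9.45 to 9.75 after hepatectomy (log2 over the array's 75th percentile).

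Of 21710 genes tested, 2181 (10.05%) passed an adjusted p of 0.05 in limma, 813 of them higher after hepatectomy (3.74%) and 1368 lower (6.30%). The median change of all genes was -0.07, and 1445 of the called genes differed by at least 2-fold. The arrays of the 2 groups did not overlap for 16.2% of genes. The balance of directions depended on processing. Relative to the array median, which put the median of all genes at 0.08, 1071 genes were higher and 621 lower, and after quantile normalization 1169 and 967. Under normexp background correction 1951 were higher and 6343 lower, and 1433 of the 2181 genes were called again. With no filter on dim probes 943 were higher and 4420 lower. Without the second, the third or the fourth liver after hepatectomy the count was 1344, 1213 or 1266, and with only these 8 arrays in the fit it was 984. In what follows "rose" and "fell" are used of called genes, with changes in log2 units ± SE. The SE and p-values rest on the spread within all 8 groups of the series, not only on these 8 livers. A gene that varied widely in other groups can therefore go uncalled although it was tight here. Conversely, a gene that varied more here than elsewhere gets a smaller SE than these 8 livers alone would give. The pancreatic genes Try4 and Cpa1, described below, had their widest SD, 2.49 and 2.53, in the group after hepatectomy. With only these 8 arrays fitted, 841 of the 2181 genes were called again. A phrase such as "in 16 of 18" gives how many of the alternative analyses (10 choices of processing or model and 8 omissions of a single array) kept that gene's call and direction, with n below 18 for a dim gene that a stricter filter removed.

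**Figure D1:**
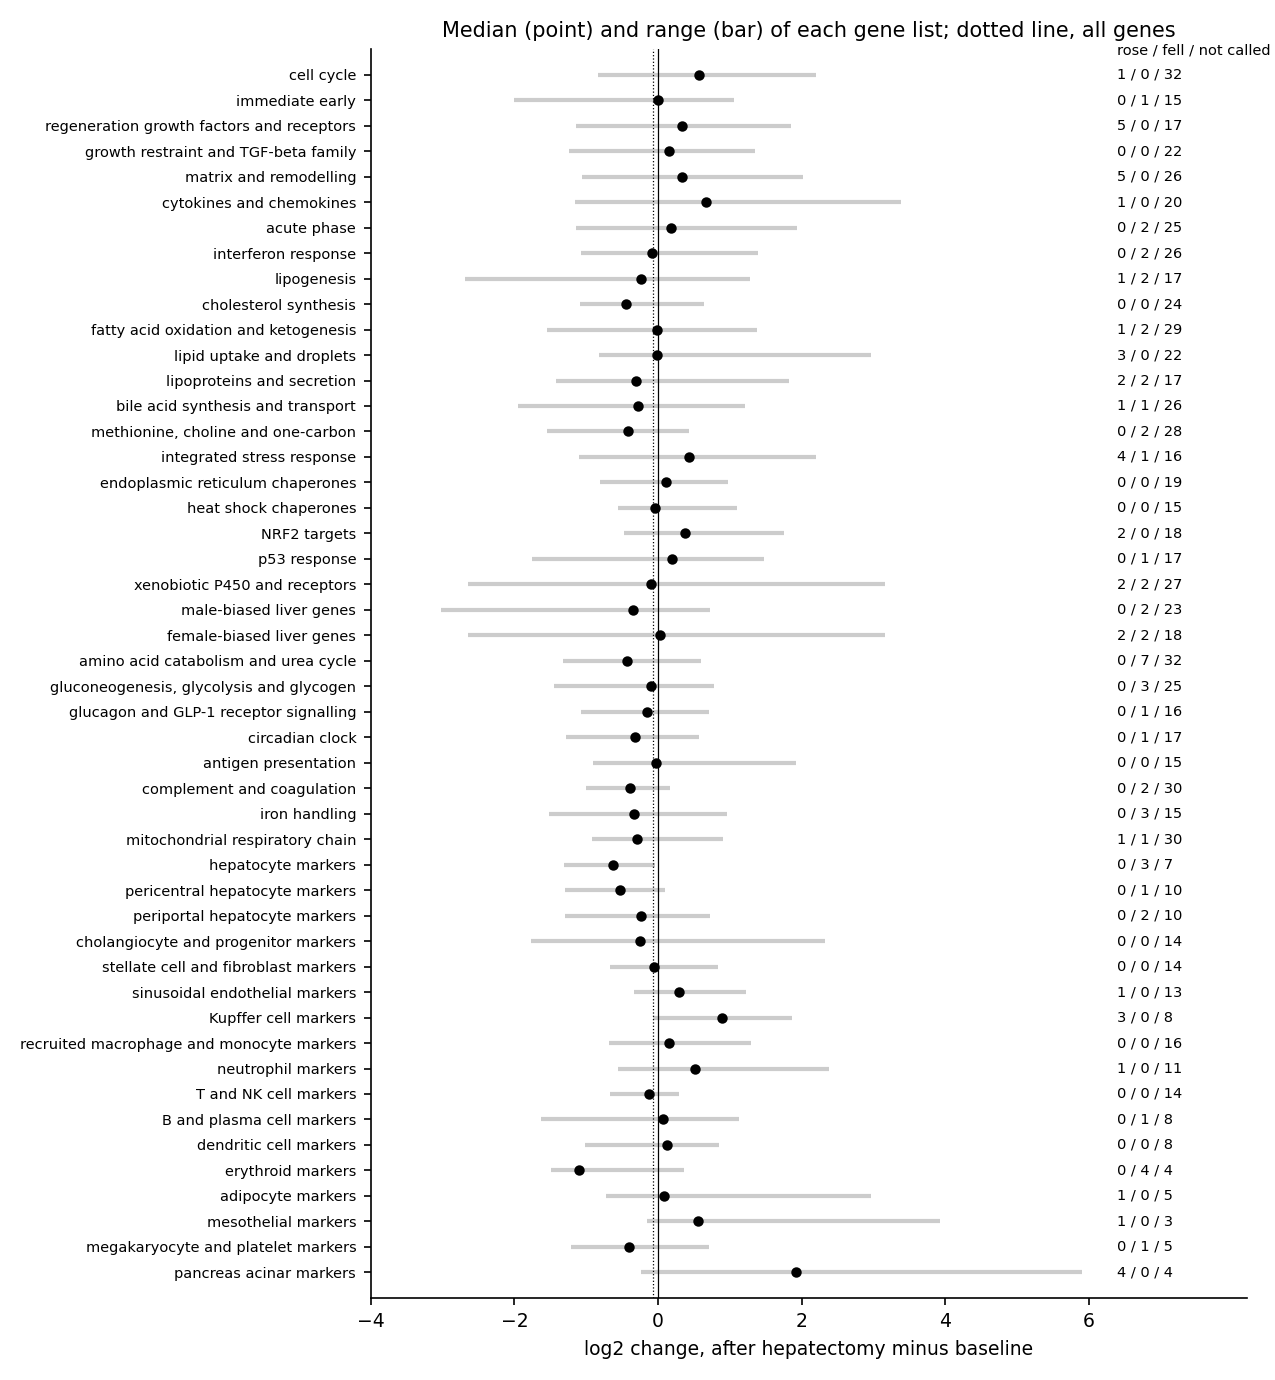
Change with hepatectomy on MCD diet with agonist for 48 gene lists, as log2 change after hepatectomy minus baseline on the horizontal axis. Points are medians over the measured members, bars run from the lowest to the highest member, the dotted line is the median of all genes (-0.07), and the numbers at the right count members that rose, fell or were not called. Pancreas acinar markers had the highest median (1.92) and erythroid markers the lowest (-1.09).

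The 48 lists, 31 of pathways and 17 of cell types, held 864 tested genes, of which 40 rose and 46 fell (9.95% called, near the 10.05% of all genes). 20 lists had a called share above that of all genes, and the other lists, whose counts and medians are given as descriptions, were at or below it. Several of the largest single changes lay outside the lists. H19, an imprinted non-coding RNA of fetal liver, read -2.88, -1.43, -1.43 and -2.56 in the baseline livers and 1.80, 2.83, 1.86 and 6.58 after hepatectomy. The fourth liver after hepatectomy was far above its group, while even the lowest of that group exceeded every baseline liver. H19 rose by 5.34 ± 1.32 (SE, log2; limma adjusted p = 0.0112; in 17 of 18), and all 6 of its probes were called in that direction. Ly6d, a surface protein of the Ly6 family, rose by 3.69 ± 0.91 and kept its call in 18 of 18, with 1.27 to 2.55 at baseline and 3.84 to 6.44 after hepatectomy. Csn3, the milk protein kappa-casein, rose by 3.15 ± 0.65 (in 17 of 17). Tinag, a basement membrane protein, was not well above background on any baseline array and was at least 6.66-fold higher after hepatectomy (limma adjusted p = 0.00442). Gcm1, a transcription factor best known from placenta, was the only one of the 10 largest named falls that was well above background on all 8 arrays. It read 5.52, 5.93, 4.70 and 7.71 at baseline and 2.80, 3.34, 3.08 and 3.11 after hepatectomy, without overlap, and fell by 2.88 (limma adjusted p = 0.00216; in 18 of 18), with 3 of 3 probes called.

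The other largest falls lay near background. Of the 10 largest named falls, 6 did not exceed background in any liver after hepatectomy, so they have lower bounds only. Rab11fip4os1, an antisense transcript, was at least 4.61-fold lower (limma adjusted p = 0.0022), and its probe may also take up sense transcript. Cacna1d, a calcium channel subunit, was at least 4.61-fold lower as well (limma adjusted p = 0.000631), and Clgn, a chaperone best known from testis, at least 5.22-fold (limma adjusted p = 0.000319). Bounds for Nyap1, Olfr481 and Mypn were at least 3.79-, 3.18- and 2.56-fold lower (limma adjusted p = 0.000497, 0.00131 and 0.000395). Dct, Igsf21 and Ffar2, a receptor for short-chain fatty acids, fell by 3.04, 2.95 and 2.92, with 2, 2 and 1 of the 4 arrays after hepatectomy still well above background.

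Transcripts of the exocrine pancreas had the highest median change of the 48 lists. They encode digestive enzymes that acinar cells make in great amounts and hepatocytes do not. Of 8 measured acinar markers, 4 rose and 0 fell, with a list median of 1.92 against -0.07 for all genes. Try4, a trypsin, read -6.70, -6.07, -7.05 and -5.59 in the baseline livers and 2.34, -3.26, -1.66 and 0.77 after hepatectomy. The first and the fourth livers after hepatectomy were the highest, and the lowest of the 4 still exceeded every baseline liver. Try4 was not well above background on any baseline array and was at least 18.5-fold higher after hepatectomy (limma adjusted p = 0.000131; in 17 of 17).

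Cpa1, carboxypeptidase A1, read -6.60, -5.82, -6.45 and -4.63 at baseline and 2.44, -3.33, -1.88 and 0.35 after hepatectomy and was at least 16.6-fold higher (limma adjusted p = 0.000986; in 17 of 17). Cela1, an elastase, read -3.16, -2.97, -2.62 and -2.15 and then 0.17, -0.66, -0.46 and 0.39, a rise of 2.59 ± 0.35 (limma adjusted p = 7.99e-05; in 17 of 17) with the tightest spread among these genes. Prss2, another trypsin, was at least 3.77-fold higher (limma adjusted p = 0.0314; in 10 of 17), but its groups overlapped: -6.22 to -4.20 at baseline against 0.08, -4.29, -4.60 and -1.49 after hepatectomy. Try4 and Prss2 belong to a family of near-identical trypsins, and their probes may share signal. Pnliprp1, a pancreatic lipase-related protein outside the list, was at least 2.96-fold higher (limma adjusted p = 0.000497).

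The remaining acinar markers were not called. Clps, the lipase cofactor, read 1.38, -1.25, -1.73 and 1.37 after hepatectomy against -1.68 to -1.35 at baseline, and Ctrb1, a chymotrypsinogen, 3.31, -0.18, -0.16 and 1.53 against -0.41 to 0.15. In both genes the first and the fourth livers were the highest. For Amy2a5, pancreatic amylase, the 2 probes disagreed: the brighter read 2.69 to 3.34 against 2.10 to 5.05 and was not called, the other was called higher, and their mean gave a change of 1.35 that passed the test (limma adjusted p = 0.0252). Without the first or the fourth liver 3 acinar markers were called, and without the second or the third 6. In a bulk sample more cells of a type and more RNA per cell cannot be told apart. Whether pancreatic tissue was present in the livers was not tested.

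The start-proximal promoter sequences of 3 of these genes that rose together are shown because each carries a TATA box (letters TATAAA, in capitals) close to the gene start. They are from RefSeq on GRCm38.p6, run 5′ to 3′ on the gene's strand and end at or before the base preceding the start.
Try4, chr6:41302196-41302271, plus strand: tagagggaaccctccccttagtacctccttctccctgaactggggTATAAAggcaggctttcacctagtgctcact
Cela1, chr15:100687921-100687992, minus strand: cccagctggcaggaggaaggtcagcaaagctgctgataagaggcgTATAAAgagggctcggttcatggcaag
Prss2, chr6:41521715-41521775, plus strand: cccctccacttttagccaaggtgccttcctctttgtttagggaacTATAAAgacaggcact
The same letters, searched on both strands in windows of 250 bases before to 50 after the start, were present for 15.7% of all 27025 genes with a window, 10.6% of 11963 tested genes, 13.4% of 469 genes called higher and 11.05% of 688 called lower. This motif was chosen after the values were seen, and the windows of Cpa1 and Pnliprp1 do not hold it before the start.

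**Figure D2:**
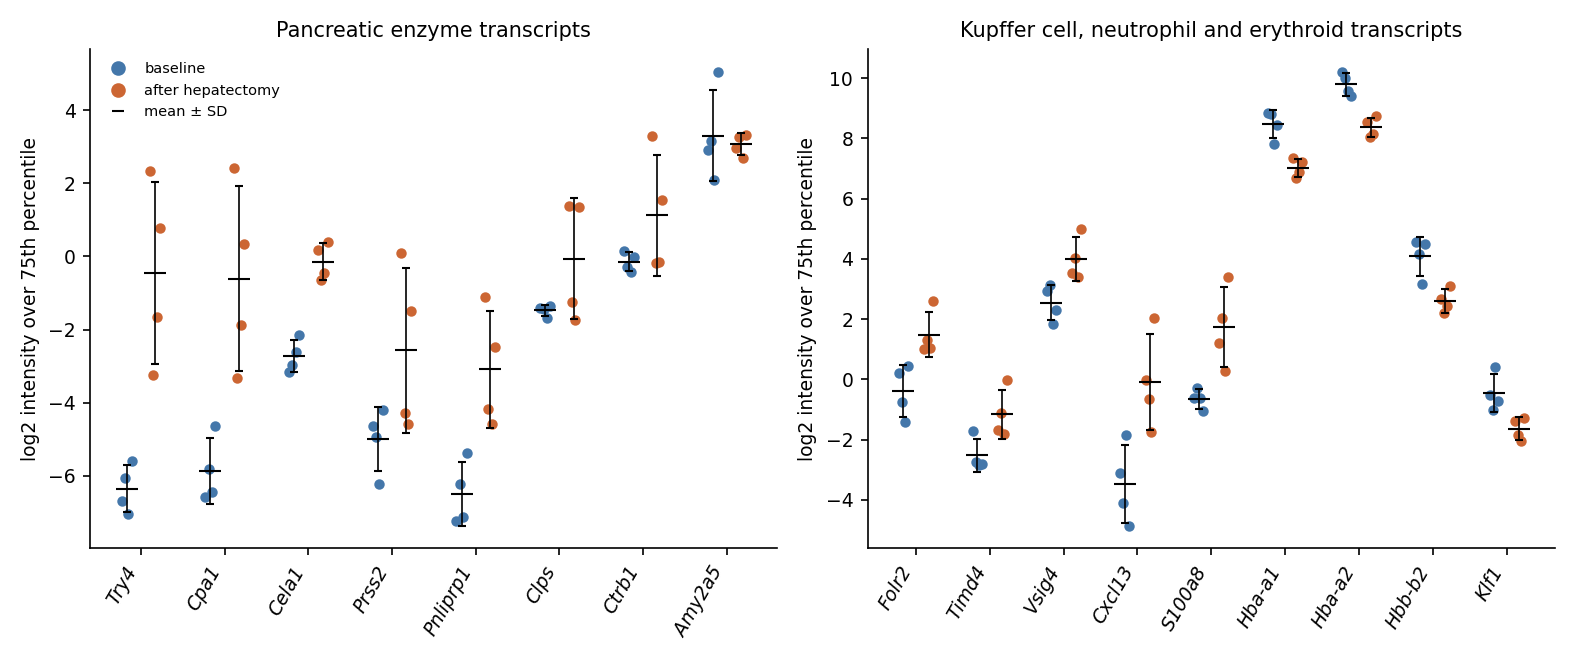
Log2 intensity relative to the array's 75th percentile for pancreatic enzyme transcripts (left) and for Kupffer cell, neutrophil and erythroid transcripts with Cxcl13 (right). Each point is 1 liver, blue at baseline and orange after hepatectomy, with means ± SD over 4 livers in black. For Try4, Cpa1, Prss2, Pnliprp1, Clps and Ctrb1 the first and the fourth livers after hepatectomy are the highest, and all 4 erythroid transcripts shown lie lower after hepatectomy.

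The fatty acid uptake and droplet genes Cd36, Lpl and Cidec rose, whereas Srebf1 and Pnpla3, which bear on lipid synthesis, fell. Among the 25 lipid uptake and droplet genes measured 3 rose and 0 fell, with a median of -0.01. Cd36, the fatty acid translocase, read 1.49, 0.73, 1.43 and 1.18 at baseline and 2.89, 3.16, 3.50 and 3.70 after hepatectomy, without overlap. It rose by 2.11 ± 0.43 (limma adjusted p = 0.00325; in 18 of 18). Lpl, lipoprotein lipase, which releases fatty acids from circulating triglyceride, rose by 2.46 ± 0.58 from 0.02, 1.53, 1.02 and 1.38 to 3.31, 2.33, 2.85 and 5.28 (limma adjusted p = 0.00876; in 18 of 18), and the fourth liver was the highest. Cidec, which enlarges lipid droplets, read 1.56, 2.08, 0.32 and 1.28 and then 2.59, 5.81, 5.43 and 3.31, a rise of 2.97 ± 0.64 (limma adjusted p = 0.00496; in 18 of 18). Here the second and the third livers after hepatectomy were the high ones. Plin2, the common droplet coat protein, read 6.36 to 7.49 at baseline and 6.90 to 8.59 after hepatectomy and was not called (limma adjusted p = 0.148).

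In lipogenesis, 2 of 20 measured genes fell and 1 rose, with a median of -0.24. Without the third or the fourth liver after hepatectomy, or without the first baseline liver, 0 fell in limma, and without any other single liver 1 or 2 did. Srebf1, the transcription factor of lipogenic genes, fell by 1.16 with overlapping arrays (limma adjusted p = 0.0402; in 11 of 18). The probe of Pnpla3, a lipid hydrolase linked to fatty liver, was well above background on 3 of the 4 baseline arrays and on 0 after hepatectomy, so it was at least 3.05-fold lower (limma adjusted p = 0.0274; in 12 of 17). Insig2, which retains SREBP precursors in the endoplasmic reticulum, rose by 1.29 ± 0.32 (limma adjusted p = 0.0123; in 17 of 18). Enzymes of the pathway itself were not called: Fasn, fatty acid synthase, ranged over 1.48 to 6.39 at baseline and 0.01 to 3.29 after hepatectomy, and Scd1, the stearoyl-CoA desaturase, over 1.59 to 4.33 and 3.44 to 5.47. None of 24 genes of cholesterol synthesis was called.

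Among 21 lipoprotein genes 2 rose and 2 fell, with a median of -0.30. These counts turned with the processing: 3 rose and 10 fell under normexp background correction (median -0.58), and 4 rose and 1 fell after quantile normalization (median 0.06). Apoa2, a major protein of high-density lipoprotein, read 10.49, 10.74, 10.36 and 10.79 at baseline and 9.35, 9.04, 8.94 and 9.36 after hepatectomy and fell by 1.42 (0.24 SE; limma adjusted p = 0.000682; in 18 of 18). Only 1 of its 2 probes was called. Its change was -0.65 under normexp, -0.62 after quantile normalization and -0.76 with probes averaged. Pltp, which transfers phospholipid between lipoproteins, rose by 1.82 ± 0.43 (limma adjusted p = 0.00848; in 18 of 18). Apoa4, carried on triglyceride-rich particles, rose by 1.30 ± 0.42 (in 10 of 18) and Apoe, a ligand of remnant receptors, fell by 0.72 (in 10 of 18), but after quantile normalization the change of Apoe was 0.09. In fatty acid oxidation and ketogenesis, with 32 measured genes, Ehhadh, a peroxisomal enzyme, rose by 1.38 ± 0.37 (limma adjusted p = 0.0182; in 15 of 18). The mitochondrial enzymes Cpt2 and Acaa2 fell by 1.15 and 0.72 (in 11 of 18 and 8 of 18), and Cpt1a, the entry step, was not called (0.32 ± 0.22). Of 28 bile acid genes, Abcb4, the phospholipid exporter of the canaliculus, rose by 0.92 ± 0.30 (in 10 of 18) and Abcg5, a sterol exporter, fell by 1.03 (in 8 of 18). Cyp7a1, the rate-limiting enzyme of bile acid synthesis, was not called (-0.21 ± 0.89).

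**Figure D3:**
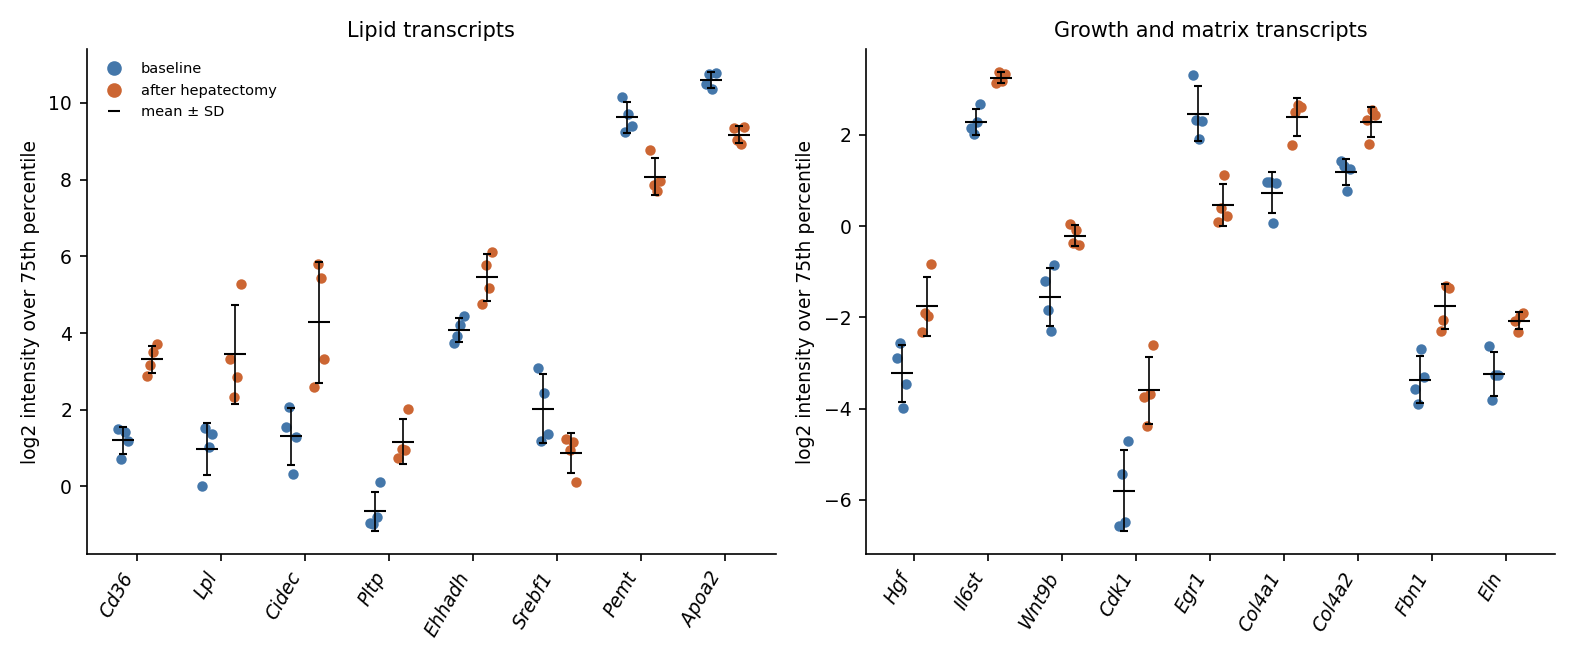
Log2 intensity relative to the array's 75th percentile for lipid transcripts (left) and for growth and matrix transcripts (right). Each point is 1 liver, blue at baseline and orange after hepatectomy, with means ± SD over 4 livers in black. Cd36, Lpl, Cidec and Col4a1 lie higher and Pemt, Apoa2 and Egr1 lower after hepatectomy, without overlap.

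Of 30 one-carbon, 39 amino acid and 28 glucose metabolism genes, 2, 7 and 3 passed the test, and these fell. Of all genes, 10.05% passed and 6.30% were called lower. The share that passed was below 10.05% in the one-carbon list, near it in the glucose list and above it in the amino acid list. Under normexp 3, 5 and 1 genes of the one-carbon, amino acid and glucose lists rose and 11, 8 and 3 fell. With only these 8 arrays fitted, 1, 0 and 1 fell in limma. Pemt, which makes phosphatidylcholine by methylating phosphatidylethanolamine and so bears on the withheld nutrient, read 10.16, 9.23, 9.70 and 9.40 at baseline and 8.77, 7.86, 7.71 and 7.96 after hepatectomy. The ranges did not overlap, and Pemt fell by 1.55 (0.29 SE; limma adjusted p = 0.0019; in 18 of 18), although 1 of its 3 probes passed the test. Dmgdh, of choline breakdown, fell by 0.90 (in 11 of 18), and the other 28 of the 30 methionine, choline and one-carbon genes were not called. Their list had a median of -0.42. Mat1a, the adult hepatic enzyme making S-adenosylmethionine, read 7.61 to 8.56 at baseline and 7.20 to 7.76 after hepatectomy, and Gnmt, which uses up S-adenosylmethionine, 8.31 to 9.24 and 7.69 to 8.73 (limma adjusted p = 0.149 and 0.0645). Mat2a changed by 0.11 ± 0.29 and was not called.

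Of 39 genes that break down amino acids or belong to the urea cycle, 7 fell and 0 rose, with a median of -0.44. Uroc1, Hal and Ftcd, enzymes of histidine breakdown, fell by 1.33, 1.30 and 0.91 (limma adjusted p = 0.0114, 0.0196 and 0.016; in 14 of 18, 13 of 18 and 12 of 18). Hal read 6.68, 6.35, 8.23 and 5.93 at baseline and 5.57, 5.17, 5.54 and 5.73 after hepatectomy, and the third baseline liver was the highest of all 8. Cps1, the entry enzyme of the urea cycle, read 7.15, 6.18, 8.05 and 8.28 and then 6.53, 5.79, 5.73 and 6.38 and fell by 1.31 (limma adjusted p = 0.0157; in 12 of 18), with overlap between the groups. Hpd, of tyrosine breakdown, Prodh, of proline breakdown, and Agxt, which detoxifies glyoxylate, completed the 7. The count rested on single livers: it was 1 without the second liver after hepatectomy or without the third baseline liver, 2 without the third after hepatectomy, 4 without the fourth, 2 or 3 under median scaling or quantile normalization, and 0 in limma with only these 8 arrays fitted.

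Of 28 genes of gluconeogenesis, glycolysis and glycogen, 3 fell and 0 rose, with a median of -0.10. These were Gckr, a regulator of hepatic glucose use (-1.22 ± 0.34; in 11 of 18), the glycogen-targeting phosphatase subunit Ppp1r3b and Igfbp2, an insulin-responsive binding protein (-1.19 ± 0.35; in 11 of 18); under median scaling or quantile normalization, or with only these 8 arrays fitted, 1 gene fell. Ppp1r3b read 7.70, 7.08, 8.33 and 7.84 at baseline and 6.99, 5.69, 5.66 and 6.81 after hepatectomy, without overlap, and fell by 1.45 (limma adjusted p = 0.00994; in 16 of 18). The gluconeogenic genes Pck1 and G6pc and their coactivator Ppargc1a were not called, at -0.37 ± 0.34, 0.79 ± 0.83 and 0.62 ± 0.48. Of the agonist's 2 receptors, Gcgr read 7.71, 8.21, 8.13 and 7.06 at baseline and 7.28, 7.22, 6.83 and 6.71 after hepatectomy. It fell by 0.77 (limma adjusted p = 0.0419; in 8 of 18), and the groups overlapped in the fourth baseline liver. The probe of Glp1r was dim, at -3.49 to -2.47 at baseline and -3.63 to -2.77 after hepatectomy, and was not called. No other of the 17 genes of glucagon and GLP-1 receptor signalling passed.

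The ligands Wnt9b, Hgf, Il6 and Areg and the receptor chain Il6st rose 2 weeks after hepatectomy, whereas 1 of 33 cell cycle genes did. Of 22 growth factors and receptors 5 rose and 0 fell, with a median of 0.33, whereas under normexp 2 rose and 3 fell. Il6st, the gp130 chain that transmits interleukin-6 signals, read 2.14, 2.02, 2.29 and 2.67 at baseline and 3.13, 3.37, 3.19 and 3.33 after hepatectomy, without overlap. It rose by 0.97 ± 0.24 (limma adjusted p = 0.0124; in 18 of 18). Wnt9b, a Wnt ligand of central vein endothelium, rose by 1.34 ± 0.29 (limma adjusted p = 0.00507; in 17 of 18), with -2.29 to -0.85 at baseline and -0.42 to 0.04 after hepatectomy. Hgf, the mitogen made by stellate and endothelial cells, rose by 1.47 ± 0.37 (limma adjusted p = 0.0125; in 13 of 17), with arrays at -2.90, -2.55, -3.98 and -3.45 and then -2.33, -1.90, -1.96 and -0.83. The baseline means of Il6st and Hgf, 2.28 and -3.22, were the lowest of the baseline groups. Il6st averaged 3.01 to 3.30 in the others and 3.26 here after hepatectomy. Hgf averaged -2.31 to -1.38 in the others and -1.75 here after hepatectomy. Wnt9b, Il6 and Areg were not lowest in this baseline group.

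Il6 and Areg, an EGFR ligand, were near background. Il6 was well above it on 1 baseline array and on 3 after hepatectomy, rose by 1.86 ± 0.47 (limma adjusted p = 0.0133) and reversed to -0.22 under normexp background correction. Areg was above background on 0 baseline arrays and 3 after hepatectomy, was at least 1.88-fold higher (limma adjusted p = 0.0325) and went to -0.10 under normexp. The receptors Met and Egfr were not called (0.10 ± 0.21 and 0.46 ± 0.49). The cell cycle gene was Cdk1, the kinase of mitotic entry, whose probe was above background on 0 baseline arrays and on all 4 after hepatectomy. It was at least 2.08-fold higher (limma adjusted p = 0.00659; in 16 of 17), and its fitted change was -0.10 under normexp. The median of the 33 genes was 0.57. Mki67, a marker of dividing cells, read -0.87, -0.12, -2.44 and -0.85 at baseline and -0.87, -1.05, 0.31 and 0.58 after hepatectomy, with overlap, and Ccnd1, cyclin D1, read 2.72 to 5.30 and 4.59 to 5.96. Neither was called, nor were Pcna, Mcm2 and Uhrf1 at 0.63 ± 0.28, 1.19 ± 0.40 and 1.25 ± 0.54, or the inhibitor Cdkn1a (1.35 ± 0.73). Without the fourth liver after hepatectomy, or with only these 8 arrays fitted, 2 growth factors and receptors were called, and without the third baseline liver 3.

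Egr1, an immediate early transcription factor, was the only one of 16 such genes called. It read 3.32, 2.32, 1.92 and 2.31 at baseline and 0.08, 0.41, 1.13 and 0.23 after hepatectomy and fell by 2.003 (0.49 SE; limma adjusted p = 0.0106; in 18 of 18). None of 22 genes of growth restraint and the TGF-beta family passed in limma, Tgfb1 included (0.17 ± 0.37).

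Because the agonist's receptors signal through cyclic AMP, the cyclic AMP response element (letters TGACGTCA, which read the same on both strands) was looked for in the RefSeq promoter windows. Of 649 list members tested with a window, 17 held it and 5 of these were called, where 10.05% of all genes tested were called. The carriers not called were Ahcyl1, Btg2, Cdkn2b, Cldn7, Dusp1, Elovl5, H2-Aa, Ldha, Mcm5, Ppp1r15a, Prkar1a and Uqcrfs1. Both groups received the agonist, so an effect of the agonist through the element was not tested. Parts of the windows of the 5 called genes are printed with the element in capitals. Relative to the gene start it begins at -61 in Areg, -169 in Cycs, -62 in Plk2, -46 in Pnpla3 and -9 in Hlf.
Areg, chr5:91139498-91139585, plus strand: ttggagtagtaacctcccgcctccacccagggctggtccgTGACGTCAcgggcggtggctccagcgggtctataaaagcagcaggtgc
Cycs, chr6:50566691-50566778, minus strand: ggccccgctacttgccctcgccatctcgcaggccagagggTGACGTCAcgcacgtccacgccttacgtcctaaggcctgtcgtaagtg
Plk2, chr13:110394942-110395029, plus strand: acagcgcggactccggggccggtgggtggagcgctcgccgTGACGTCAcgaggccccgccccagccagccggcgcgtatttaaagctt
Pnpla3, chr15:84167730-84167815, plus strand: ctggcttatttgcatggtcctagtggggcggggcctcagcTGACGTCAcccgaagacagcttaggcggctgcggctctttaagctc
Hlf, chr11:90390918-90390966, minus strand: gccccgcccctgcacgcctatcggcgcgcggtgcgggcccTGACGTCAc
Of these, Areg and Cycs, cytochrome c (0.91 ± 0.28; in 9 of 18), rose. Plk2, a polo-like kinase, read -1.79, -2.12, -2.08 and -0.19 at baseline and -3.65, -3.21, -2.92 and -3.41 after hepatectomy and fell by 1.76 (limma adjusted p = 0.00542; in 18 of 18). Pnpla3 and Hlf, a clock-output transcription factor (-0.82 ± 0.25; in 9 of 18), fell as well. The element was present for 3.21% of tested genes, 3.41% of genes called higher and 3.78% of those called lower. The E-box CACGTG was present for 10.8, 8.32 and 10.8% of these, the D-box TTATGTAA for 0.811, 0.853 and 0.727%, and the amino acid response element TGATGCAA for 0.828, 0.640 and 0.145%. These are matches of letters only.

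The basement membrane collagens Col4a1 and Col4a2 and the elastic fibre genes Fbn1 and Eln rose. Of 31 matrix and remodelling genes 5 rose and 0 fell, with a median of 0.34. Col4a1, a chain of basement membrane collagen, read 0.97, 0.96, 0.06 and 0.94 at baseline and 1.77, 2.50, 2.65 and 2.61 after hepatectomy and rose by 1.65 ± 0.36 (limma adjusted p = 0.00486; in 18 of 18). Its partner chain Col4a2 rose by 1.09 ± 0.29 (in 16 of 18), and both sets of arrays were free of overlap. The elastic fibre genes Fbn1 and Eln rose by 1.61 ± 0.42 and 1.17 ± 0.31 (in 15 of 17 and 14 of 17), each from only 2 of 4 baseline arrays above background, and the fibrillar collagen Col3a1 by 1.26 ± 0.38 (in 11 of 18). Col1a1, the main fibrillar collagen, read -1.04, 0.61, -0.66 and 0.20 at baseline and 0.11, 0.09, 1.33 and 0.92 after hepatectomy and was not called. Timp1, an inhibitor of matrix proteases, read -3.37 to -2.35 and -1.03 to -0.58 without overlap and was not called either (limma adjusted p = 0.144). Its SD was 0.45 and 0.22 in these 2 groups, against 2.48 and 2.52 after hepatectomy on the standard diet without and with agonist. None of 14 stellate cell and fibroblast markers passed, Acta2 included (-0.30 ± 0.58). The matrix count was 2 without the third liver after hepatectomy, 3 without the fourth or without the second or the third baseline liver, and 2 rose and 2 fell under normexp.

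Of 11 measured markers of Kupffer cells, the resident macrophages of the liver, 3 rose and 0 fell, with a median of 0.90. The mean level of the 11 ran from 1.21 to 2.19 in the baseline livers and from 2.44 to 3.77 after hepatectomy, without overlap. Folr2 read 0.21, -0.74, -1.42 and 0.45 at baseline and 0.997, 1.32, 1.04 and 2.59 after hepatectomy and rose by 1.86 ± 0.42 (limma adjusted p = 0.00648; in 17 of 18). Vsig4, a complement receptor, rose by 1.44 ± 0.45 (in 12 of 18) and Timd4, a phosphatidylserine receptor, by 1.36 ± 0.41 (in 9 of 17). The baseline means of Folr2 and Timd4, -0.37 and -2.52, were the lowest of the baseline groups, but that of Vsig4 was not. Folr2 averaged 0.86 to 1.81 in the other baseline groups and 1.49 here after hepatectomy. Marco, a scavenger receptor, was higher in every liver after hepatectomy (4.96 to 6.49 against 3.43 to 4.53) but not called (limma adjusted p = 0.0745). The fourth liver after hepatectomy was the highest for all 4 of these genes, and 1 marker was called without it, as without the second liver or without the third or the fourth baseline liver.

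None of 16 markers of recruited macrophages and monocytes passed, nor of 14 T and NK cell or 8 dendritic cell markers. Trem2 and Spp1, of lipid-associated macrophages and injured ducts, changed by -0.58 ± 0.82 and -0.25 ± 0.66 and were not called. Among chemokines Cxcl13, a B cell attractant, rose by 3.39 ± 0.79 from -3.11, -4.10, -1.86 and -4.85 to -0.03, -0.64, -1.74 and 2.03 (limma adjusted p = 0.00782; in 17 of 17), with the fourth liver the highest. S100a8, a granule protein of neutrophils, rose by 2.39 ± 0.65 (in 15 of 18), with -1.06 to -0.29 at baseline and 0.29 to 3.41 after hepatectomy, the only one of 12 neutrophil markers called. Among the lists with few members, Msln, a mesothelial surface protein, rose by 3.92 ± 0.92 from -1.35, -5.12, -0.86 and -4.54 to 1.69, 0.85, 2.04 and -0.75 (limma adjusted p = 0.00808; in 17 of 17), and Oit3, of sinusoidal endothelium, by 1.22 ± 0.34 (in 14 of 18). Treml1, of platelets, fell by 1.22 (in 10 of 18). Tnfrsf17, a plasma cell receptor and the only one of 9 B and plasma cell markers to pass the test, was not well above background in either group and is given no fold.

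Of 8 erythroid markers, transcripts of red cells and their precursors, 4 fell and 0 rose, with a median of -1.09. Hba-a2, an alpha-globin, read 10.21, 9.998, 9.56 and 9.39 at baseline and 8.53, 8.06, 8.13 and 8.74 after hepatectomy and fell by 1.43 (0.29 SE; limma adjusted p = 0.00297; in 17 of 18). Hba-a1 fell by 1.45, the beta-globin Hbb-b2 by 1.49 and Klf1, the erythroid transcription factor, by 1.18 (in 16 of 18, 11 of 18 and 11 of 18). The mean level of the 8 markers was 3.98 to 4.54 in the baseline livers and 3.11 to 3.76 after hepatectomy, without overlap. Globin genes are near-identical copies, so their probes may share signal. How far the blood content of the samples differed was not tested. The count was 2 without the second or the third liver after hepatectomy or without the first baseline liver, 2 under median scaling and 1 after quantile normalization.

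Of 10 hepatocyte markers 3 fell and 0 rose, with a median of -0.62: Cps1, Trf, the iron carrier transferrin, and Serpina1a, an alpha-1-antitrypsin that shares sequence with its paralogs. Trf and Serpina1a fell by 0.99 and 0.83 (in 10 of 18 and 10 of 18). None of the 10 was called without the second or the third liver after hepatectomy. Alb changed by -0.26 ± 0.24 and was not called. With only these 8 arrays fitted 0 of the 10 fell in limma. After quantile normalization 2 rose and 1 fell, with a median of -0.09, and Alb was called higher (0.62; limma adjusted p = 0.0162). Gulo, a pericentral enzyme of vitamin C synthesis, read 8.26, 8.38, 7.67 and 8.32 at baseline and 7.34, 6.62, 6.96 and 6.53 after hepatectomy and fell by 1.29 (limma adjusted p = 0.0108; in 17 of 18), the only one of 11 pericentral markers. Of 12 periportal markers Hal and Agxt fell. None of 14 cholangiocyte and progenitor markers passed.

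Complement and coagulation had 2 falls among 32, C2 (6.42 to 7.45 at baseline and 5.64 to 6.07 after hepatectomy; limma adjusted p = 0.00528; in 16 of 18) and clotting factor F7 (-0.84 ± 0.25; in 10 of 18), with a list median of -0.39. In the acute phase list of 27, Serpina3m fell by 1.14 (limma adjusted p = 0.0065; in 17 of 18) and the fibrinogen chain Fgb by 0.76 (in 9 of 18), though Fgb was at 0.09 after quantile normalization and under normexp 2 genes of this list rose and 0 fell. Lcn2, a siderophore binder induced by injury, read 6.16, 5.89, 6.87 and 6.48 at baseline and 7.07, 8.52, 8.25 and 9.31 after hepatectomy without overlap, and was not called (limma adjusted p = 0.21). Its SD was 0.42 and 0.93 here, and 2.50 and 2.24 after hepatectomy on the standard diet without and with agonist. Saa1, serum amyloid A, ranged over 4.63 to 6.39 and 4.33 to 8.64 and was not called. Iron handling genes Tfr2, Trf and Aco1 fell out of 18 (Tfr2 -0.72 ± 0.23, in 7 of 18, with 1 spot of the second liver after hepatectomy left out as an outlier; Aco1 -0.70 ± 0.23, in 8 of 18), with a list median of -0.33. After quantile normalization 2 iron handling genes rose and 1 fell (median 0.09), and with only these 8 arrays fitted 0 fell in limma. Of 28 interferon response genes Stat2 and Mx2 fell by 0.88 and 1.07 (in 15 of 18 and 15 of 18), and 0 rose, whereas 3 rose and 3 fell under normexp and 1 rose and 0 fell under median scaling. None of 15 antigen presentation genes passed.

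Cytochrome P450 genes moved in both directions. Of 31 xenobiotic P450 genes and receptors 2 rose and 2 fell. Cyp2b13, a P450 of female liver, read 3.03, 1.77, 1.70 and 2.26 at baseline and -0.10, -0.37, -0.42 and -0.93 after hepatectomy. It fell by 2.65 (0.30 SE; limma adjusted p = 2.5e-05; in 18 of 18), with the groups far apart. Cyp3a44, another P450 of female liver, read 0.35, 1.52, 0.52 and 1.51 and then 2.48, 5.97, 5.37 and 2.73 and rose by 3.16 ± 0.64 (limma adjusted p = 0.00324; in 18 of 18). As for Cidec, the second and the third livers after hepatectomy were the high ones. Cyp1a1, the classic target of the aryl hydrocarbon receptor, was not well above background at baseline and was at least 3.48-fold higher (limma adjusted p = 0.0133; in 15 of 17). Cyp2u1 fell by 1.46 (in 17 of 18), with 1 of its 3 probes called. Cyp2b10 and Cyp2b9, markers of CAR activation, changed by -1.23 ± 0.61 and -1.06 ± 0.60 and were not called, and neither were Cyp3a11 (0.13 ± 0.43, 1 outlier spot after hepatectomy left out) and Cyp4a12a (-0.70 ± 0.90). P450 genes of one subfamily are close paralogs, and probes may share signal. Among 25 male-biased genes Hsd3b2, a steroid dehydrogenase with several near copies, fell by 1.32 (limma adjusted p = 0.00256; in 18 of 18), with 1 of 3 probes called. Among 22 female-biased genes the prolactin receptor Prlr fell by 1.17 and the reticulon Rtn4 rose by 1.17 ± 0.36 (in 11 of 18 and 11 of 18).

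Of 21 genes of the integrated stress response 4 rose and 1 fell, with a median of 0.43. Asns, asparagine synthetase, read 4.76, 4.68, 2.81 and 4.56 at baseline and 5.84, 5.46, 5.25 and 5.63 after hepatectomy and rose by 1.34 ± 0.41 (limma adjusted p = 0.0346; in 10 of 18), with the third baseline liver well below its group. Psat1, of serine synthesis, rose by 1.92 ± 0.61 (in 10 of 18) and was low in that same baseline liver (1.63, 2.27, -1.51 and 1.77). Ddit4, an inhibitor of mTOR signalling, rose by 2.20 ± 0.68 (in 12 of 18). Eif4ebp1, a brake on translation initiation, rose by 0.90 ± 0.23 (in 14 of 18) and was at -0.45 under normexp. Atf4, the transcription factor of this response, fell by 1.10 (limma adjusted p = 0.0162; in 13 of 18), with 7.59 to 8.06 at baseline and 6.14 to 6.92 after hepatectomy, and 1 of its 2 probes was called. Without the second liver after hepatectomy 0 genes of this list rose in limma and Atf4 still fell, and with only these 8 arrays fitted 1 rose and 1 fell. Of 20 NRF2 targets Srxn1 and Pgd rose by 1.60 ± 0.39 and 1.75 ± 0.50 (in 16 of 18 and 13 of 18). Plk2 was the only one of 18 p53 response genes called, and none of 19 endoplasmic reticulum chaperones or 15 heat shock chaperones passed. In the respiratory chain, with 32 measured genes, Ndufb8 of complex I fell by 0.92 (limma adjusted p = 0.0042; in 17 of 18) and Cycs rose. Of 18 clock genes only Hlf was called. Dbp was lower in every liver after hepatectomy (5.24 to 6.36 against 6.95 to 7.48) but not called (limma adjusted p = 0.337). Its SD was 0.23 at baseline and 0.47 after hepatectomy here, and 1.36 to 2.21 in the standard diet groups. Arntl changed by 0.57 ± 0.64.

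The liver hormones Fgf21, Gdf15, Igf1 and Igfbp1 were not called, with changes of 0.51 ± 0.90, 0.29 ± 0.55, -0.09 ± 0.28 and 0.31 ± 0.42. Nor were the metallothioneins Mt1 and Mt2, at 0.11 ± 0.71 and 0.47 ± 0.89, with 1 baseline spot of Mt2 left out as an outlier, or the heat shock protein Hspa1a at 0.29 ± 0.52. For these genes the arrays of the 2 groups overlapped wherever all 8 were present.

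Whether hepatectomy changed a gene differently here than under the other diets and treatments was tested as a difference of changes. Against the MCD diet without agonist 242 genes were called (1.11%), 63 with a higher and 179 with a lower change. Against the standard diet with agonist 72 were called (0.332%; 30 higher, 42 lower), and against the standard diet without agonist 48 (0.221%; 27 higher, 21 lower). No gene was called in all 3 in limma; 308 had an unadjusted p under 0.05 with the same sign in all 3. The 3 tests share the 8 livers described here. In the deposited table of processed values the MCD diet and the standard diet with agonist groups appear exchanged, and if the scanner labels were the ones exchanged, 242 and 72 would change places. The test against the standard diet without agonist does not depend on it.

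Of the pancreatic genes, Cela1 changed by 2.59 ± 0.35 here and by 1.83 ± 0.35, -0.40 ± 0.35 and -1.39 ± 0.35 on the MCD diet without agonist, the standard diet with agonist and the standard diet without agonist. Its change was higher by 2.99 ± 0.50 and 3.98 ± 0.50 than on the standard diet with and without agonist (limma adjusted p = 0.00468 and 0.000216), while the difference of 0.76 ± 0.50 from the MCD diet without agonist was not called. The change of Try4 was likewise called higher than on the standard diet with and without agonist (limma adjusted p = 0.0364 and 0.0262) and not against the MCD diet without agonist. Its probe was not well above background at baseline, so these differences are given no size. Both Cela1 and Try4 were themselves called higher after hepatectomy on the MCD diet without agonist.

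The Cyp2b genes separated the 2 agonist-treated diets. On the standard diet with agonist Cyp2b10 and Cyp2b9 changed by 4.12 ± 0.61 and 3.97 ± 0.60, against -1.23 ± 0.61 and -1.06 ± 0.60 here. The differences were -5.35 ± 0.87 and -5.03 ± 0.85 (limma adjusted p = 0.00323 and 0.00468). For Cyp2b13 the difference was -3.97 ± 0.43 (limma adjusted p = 7.4e-06), and it also differed from the standard diet without agonist by -2.43 ± 0.43 (limma adjusted p = 0.0141). Cyp2b13 was dim on the standard diet, averaging -4.65 at baseline and -3.33 after hepatectomy with agonist, and -5.74 and -5.96 without it. Cyp2b9 averaged -5.14 at baseline on the standard diet with agonist. At such low levels the sizes of the differences of Cyp2b13 and Cyp2b9 are uncertain. The difference from the standard diet with agonist was -2.44 ± 0.55 for Plk2 and 3.20 ± 0.70 for the chaperone Hsph1 (limma adjusted p = 0.0419 and 0.0364). Hsph1 was not called in the comparison itself and read 3.09, 5.14, 5.45 and 2.49 after hepatectomy, high in the second and the third livers, against 2.78 to 3.13 at baseline.

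Against hepatectomy on the MCD diet without agonist, differences were called for 8 genes already named. The changes of Cdk1, Tinag and Cyp1a1 were called higher here (limma adjusted p = 0.0185, 0.0434 and 0.03). Their probes were not well above background on any baseline array here, so these differences are given no size. Oit3 differed by 2.01 ± 0.48, and Ppp1r3b by -2.08 ± 0.50 (limma adjusted p = 0.0348 and 0.0357). The differences of Cyp2u1 and Aco1 were -1.98 ± 0.45 and -1.27 ± 0.32 (limma adjusted p = 0.03 and 0.0447). Baseline levels differed between the 2 settings as well. Oit3 averaged 0.44 at baseline here and 2.01 on the MCD diet without agonist, and 1.67 and 1.23 after hepatectomy. These means were 7.74 and 6.15, then 6.29 and 6.78 for Ppp1r3b, and 9.75 and 8.28, then 8.29 and 8.81 for Cyp2u1. Cdk1 averaged -3.01 and -4.23 without agonist, and -3.60 here after hepatectomy. Clgn, not well above background after hepatectomy, had a lower change than on the MCD diet without agonist and the standard diet without agonist (limma adjusted p = 0.0173 and 0.0471).

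Tmem63a and Dnah3, chosen after their values were seen, were called both against the MCD diet without agonist and against the standard diet with agonist. Tmem63a, a mechanically gated ion channel, read 2.82, 1.88, 2.61 and 1.74 at baseline and 1.22, 0.51, 0.41 and 1.01 after hepatectomy and fell by 1.47 (limma adjusted p = 0.000395; in 18 of 18). It changed by -0.17 ± 0.23, -0.02 ± 0.23 and -0.38 ± 0.23 on the MCD diet without agonist and the standard diet with and without it, and differed by -1.30 ± 0.33 and -1.45 ± 0.33 from the first 2 (limma adjusted p = 0.0481 and 0.0443). Dnah3, an axonemal dynein, was above background on 1 baseline array and 0 after hepatectomy, so its lower changes (limma adjusted p = 0.0273 and 0.0282) rest on signals near background and are given no size. Cd36, Apoa2, Pemt, Col4a1 and Il6st, which kept their calls in 18 of 18 alternatives, were not called in any of the 3 differences (limma adjusted p from 0.0931 to 0.809), which does not show that they changed alike. The slides of the compared settings were shared only in part: both MCD groups after hepatectomy were on one slide and both agonist groups at baseline on another.

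**Figure D4:**
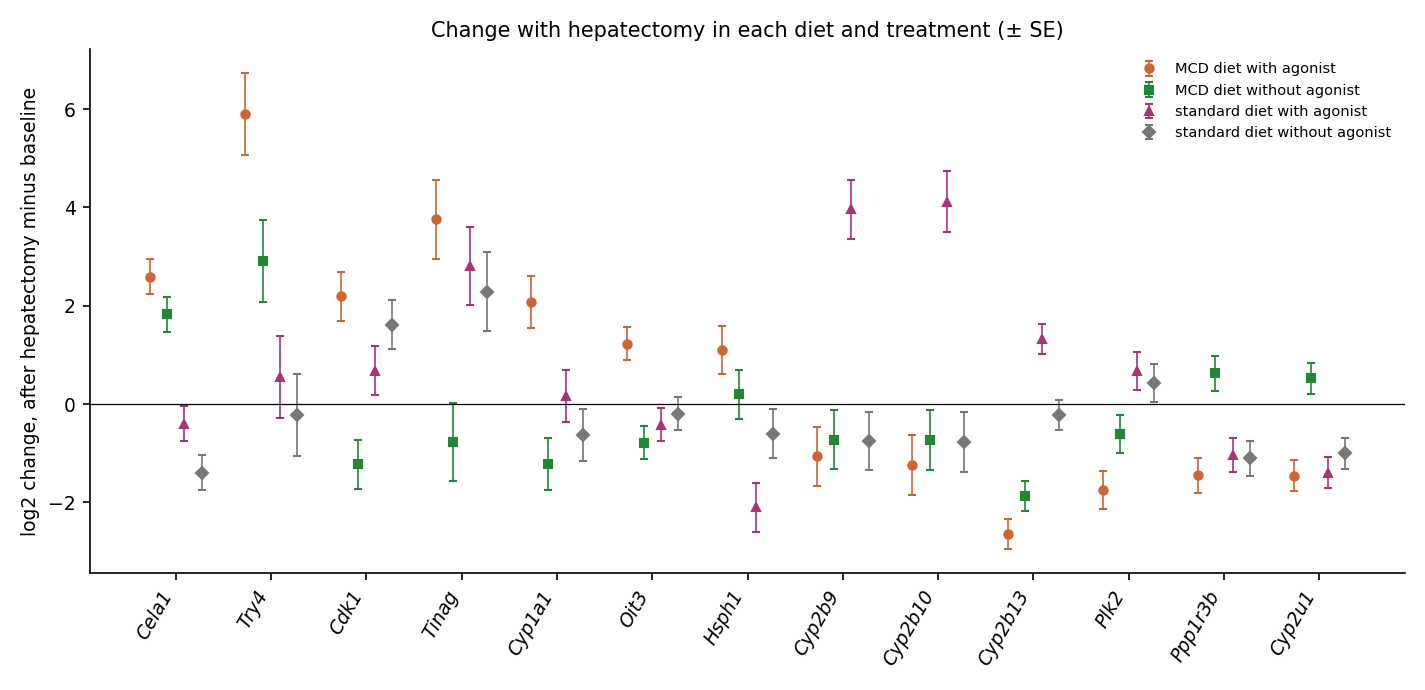
Change with hepatectomy (log2, after hepatectomy minus baseline, ± SE from the limma fit, 4 livers per group) in 4 settings of diet and agonist for 13 genes. Orange circles are the MCD diet with agonist. Values of Try4, Cdk1, Tinag and Cyp1a1 are fitted to probes not well above background at baseline in that setting and are no measured fold. Cela1 and Try4 lie highest there, Cyp2b9 and Cyp2b10 lie above 0 in the standard diet with agonist setting only (purple triangles), and Ppp1r3b and Cyp2u1 lie below 0 except on the MCD diet without agonist (green squares). Cyp2b9 and Cyp2b13 were dim at baseline on the standard diet.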

How the data were processed

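Scanner files of the 8 livers were compared with the other 24 in the same fit. Per the file headers, Feature Extraction 10.7.3.1 wrote the deposited intensity of each spot, background-subtracted on a linear scale. The deposited table of processed log2 values, for which the submitters' processing notes name limma, was not used: 16 of its 32 columns match arrays of another group best, none of them among these 8 livers.

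Each processed signal was divided by the 75th percentile of its array and put on the log2 scale, with outlier spots left out (1374 on the 8 arrays) and saturated spots kept. A probe entered where some group had it well above background in all 4 livers; a gene is its brightest such probe. Symbols came from RefSeq (GRCm38.p6); 15222 of 21710 genes matched, the rest kept the file's name. Contrasts of one limma 3.58.1 fit (R 4.3.3) over 8 groups of 4 gave p-values, adjusted by Benjamini-Hochberg over all genes. A gene whose tested probe was well above background on none of a group's 4 arrays has a bound, from the higher of its own signal and the lowest signal above background on each array.

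The comparison, lists and tests were chosen with earlier results of these data known. Named genes are the 10 largest non-overlapping rises and falls, up to 4 members per list by adjusted p and 2 by size, and a fixed set; not all are printed, and some list genes are not reported here and were left out of the lists. Tested on data simulated for this comparison (21368 genes), the fit recovered 25 of 100 changes set at 2-fold and 86 of 100 set at 4-fold, with 8 false calls. The simulation used independent normal noise, left all other genes unchanged and held no slide, scanner or session effect. Its false calls therefore do not cover calls due to those, and recovery can differ where a larger share of genes changes. Array number limits the precision. Probe positions in exons or UTRs were not looked up.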

Additional observations from a re-analysis of the deposited data

Results flagged for a closer look

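The named genes made 294 groups of 4 livers, and groups with a missing value were left out of the check. Of the groups checked, 23 held a liver whose gap to its nearest neighbour exceeded Dixon's critical value as a share of the group's range. Chance gives about 1 in 20 groups. The third baseline liver was the one set apart most often, always low: Ffar2 (-3.54), Cdkn1a (-1.44), Col4a1 (0.061), Pnpla3 (-4.45), Asns (2.81), Psat1 (-1.51) and Gulo (7.67). The fourth baseline liver was high for Tgfb1 (-0.073), Pltp (0.12) and Plk2 (-0.19) and low for Cyp2b10 (6.32) and Cyp3a11 (6.18). The second was high for Uhrf1 (-1.66) and Atf4 (8.06) and low for F7 (3.96). The first was low for Igsf21 (-2.48) and high for Cyp2b9 (3.60) and Timd4 (-1.71). After hepatectomy the first liver was low for Col4a1 (1.77) and Apoa4 (5.93), the third for Rab11fip4os1 (-7.44), and the fourth for Stat2 (2.37) and Mat2a (5.28).

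Changes with hepatectomy that differed from another diet or treatment by a test of the difference (limma, adjusted over all genes) were these. From the MCD diet without agonist: Tinag 4.52, Cdk1 3.42, Cyp1a1 3.29, Oit3 2.01, Clgn -3.29, Dnah3 -2.81, Ppp1r3b -2.08, Cyp2u1 -1.98, Tmem63a -1.30 and Aco1 -1.27. From the standard diet with agonist: Try4 5.35, Hsph1 3.20, Cela1 2.99, Cyp2b10 -5.35, Cyp2b9 -5.03, Cyp2b13 -3.97, Dnah3 -3.04, Plk2 -2.44 and Tmem63a -1.45. From the standard diet without agonist: Try4 6.12, Cela1 3.98, Clgn -2.90 and Cyp2b13 -2.43. The values of Tinag, Cdk1, Cyp1a1, Clgn, Dnah3 and Try4 are fitted to probes not well above background in 1 of the 2 groups described here and are no measured sizes. Cyp2b9 and Cyp2b13 were dim at baseline on the standard diet, so the sizes of their differences are uncertain. For Cdk1, Oit3, Ppp1r3b and Cyp2u1 the baseline levels also differed from those on the MCD diet without agonist.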

How the results depend on the processing

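Of 100 called genes named, 94 kept their direction in every alternative and 31 kept their call in all; 55 lost it without at least 1 array, and 16 genes not called passed somewhere. Called genes numbered 8294 under normexp, 5363 with no filter on dim probes and 984 with only the 2 groups fitted. The difference from the MCD diet without agonist gave 4335 under normexp, 115 under median scaling, 141 after quantile normalization, 2574 with no filter, 705 with array weights and 72 with the MCD diet and standard diet with agonist groups exchanged. That from the standard diet with agonist gave 38 under normexp, 45 under median scaling, 18 with no filter, 13 with only the groups compared, 304 with weights and 242 with those groups exchanged. That from the standard diet without agonist gave 485 under normexp, 25 under median scaling, 16 with no filter, 3 with only the groups compared, 27 with probes averaged and 132 with weights. Leaving out 1 array gave 1213 to 2196, 50 to 489, 28 to 105 and 19 to 156. The first difference was 50 without the second or the third liver after hepatectomy, 62 without the third and 489 without the second baseline liver; the next was 28 or 32 without the second or the third liver after hepatectomy; the last was 24, 22 or 20 without the second, the third or the fourth liver after hepatectomy, and 28, 19 or 156 without the first, the second or the fourth baseline liver. Reversed signs were Cdk1 (-0.10), Il6 (-0.22), Areg (-0.10) and Eif4ebp1 (-0.45) under normexp, Fgb (0.086), Apoe (0.094) and Alb (0.62) after quantile normalization, and Amy2a5 (1.35) with probes averaged. Deviations of same-numbered livers correlated at 0.02, 0.09, -0.17 and 0.10, so the numbers do not pair the livers; with the replicate number as a block 2257 genes were called, 2072 of them shared with the fit without it, and the differences gave 217, 76 and 36. The cause of these shifts was not tested. Signals near background limit what dim genes show.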

Other observations

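Within the livers after hepatectomy, different genes singled out different livers. The first and the fourth held the highest values of the pancreatic transcripts Try4, Cpa1, Cela1, Prss2, Pnliprp1, Clps and Ctrb1. For the brighter probe of Amy2a5 the second and the fourth did (3.28 and 3.34). The second and the third held the highest values of Cidec, Cyp3a44 and Hsph1. The fourth alone held those of H19 (6.58), Lpl (5.28), Cxcl13 (2.03), S100a8 (3.41) and Il6 (-2.22). These livers share 1 slide, and what sets them apart was not tested.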
